A study of Mus musculus with 40 samples.

Results

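The nuclear genes of the mitochondrial respiratory chain and ATP synthase were followed through striatal RNA of the mouse, in 92 of the 24060 genes of the count table. They were chosen by name: every gene whose symbol starts with Nduf, Uqcr, Cox4, Cox5, Cox6, Cox7, Cox8 or Atp5, with Sdha, Sdhb, Sdhc and Sdhd, and without names of pseudogenes. By role the 92 comprised 7 core and 29 accessory subunits of complex I, 4 of complex II, 8 of complex III, 18 of complex IV and 15 of complex V. A further 10 carry such a name but are assembly factors or other proteins that are not subunits (Ndufaf1 to Ndufaf7, Cox7a2l, Atp5s and Atp5sl), and Ndufa4l2, a paralogue of Ndufa4, was kept apart. The subunits encoded in mitochondrial DNA were not analysed here.

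The study compared astrocytes, neurons and whole striatum with RiboTag, in which ribosomes carrying HA-tagged Rpl22 are immunoprecipitated (IP) together with the mRNA on them, while the input is the RNA of the whole lysate. There were 40 libraries, 4 in each of 10 groups. In the astrocyte cohort (IP and input), C57/BL6NTac mice were injected at 6 weeks of age; the labels call these samples controls, and the astrocyte driver, GfaABC1D, is taken from the study's methods. In the neuron cohort (IP and input), C57/BL6NTac mice injected at 6 weeks carried the tag under the hSyn1 promoter. In the SAPAP3 cohort, WT mice (C57/BL6J) and KO mice (C57/BL6J-Dlgap3 KO), injected at 4.5 months of age, each gave IP and input. The remaining 2 groups were bulk striatum of WT and KO mice with no injection stated; the labels give C57/BL6NTac as the strain of both, unlike the SAPAP3 cohort. They also give 1 bulk WT and 1 bulk KO library the same animal number. SAPAP3, encoded by Dlgap3, is a postsynaptic scaffold protein whose loss in mice is used as a model of compulsive behaviour. Virus reaches only part of the cells of each type, and the input keeps RNA of all cells. Throughout, fewer cells of a type and less RNA per cell cannot be told apart.

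Complexes I and II pass electrons from NADH and succinate to ubiquinone, complex III passes them on to cytochrome c, and complex IV reduces oxygen. Complexes I, III and IV pump protons, and complex V (ATP synthase) lets them flow back to make ATP. Most subunits are made in all cells, but complex IV has paired isoforms: Cox4i1, Cox6a1, Cox6b1, Cox7a2 and Cox8a are the common forms, whereas Cox4i2 (lung, smooth muscle and pericytes), Cox6a2, Cox7a1 and Cox8b (heart and skeletal muscle) and Cox6b2 (testis) are known as restricted ones.

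Cox6b2 and Cox7a1 were among the members that differed most between the IP types, and the 250 bases upstream of their start and that of their common partners are shown for comparison (RefSeq, GRCm38.p6, 5′ to 3′ on the gene's strand). Capitals mark the letters CCAAT on either strand. Cox6b2 lies on the minus strand at chr7:4753095-4753344, Cox6b1 on the minus strand at chr7:30626115-30626364, Cox7a1 on the plus strand at chr7:30183921-30184170, and Cox7a2 on the minus strand at chr9:79759854-79760103.
Cox6b2: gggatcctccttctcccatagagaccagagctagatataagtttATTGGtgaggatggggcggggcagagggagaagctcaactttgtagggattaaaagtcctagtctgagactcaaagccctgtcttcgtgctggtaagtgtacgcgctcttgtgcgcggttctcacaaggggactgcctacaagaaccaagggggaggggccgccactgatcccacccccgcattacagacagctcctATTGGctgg
Cox6b1: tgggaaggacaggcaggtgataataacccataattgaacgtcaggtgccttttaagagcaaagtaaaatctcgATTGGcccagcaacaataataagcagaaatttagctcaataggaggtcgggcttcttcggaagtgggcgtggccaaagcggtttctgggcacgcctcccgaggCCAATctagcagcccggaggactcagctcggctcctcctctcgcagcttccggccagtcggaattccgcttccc
Cox7a1: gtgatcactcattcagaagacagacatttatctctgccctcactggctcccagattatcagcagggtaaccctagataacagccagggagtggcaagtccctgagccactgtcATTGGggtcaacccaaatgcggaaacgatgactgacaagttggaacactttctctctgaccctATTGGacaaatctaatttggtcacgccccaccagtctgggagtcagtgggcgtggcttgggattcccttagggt
Cox7a2: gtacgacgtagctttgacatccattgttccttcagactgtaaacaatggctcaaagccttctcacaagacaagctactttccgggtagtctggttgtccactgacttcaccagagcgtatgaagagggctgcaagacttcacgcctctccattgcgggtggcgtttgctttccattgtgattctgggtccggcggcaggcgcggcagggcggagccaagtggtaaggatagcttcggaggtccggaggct
The upstream windows of Cox6b2, Cox6b1 and Cox7a1 each held CCAAT in capitals at 2 positions, and that of Cox7a2 held none.

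Library depth lay between 23438112 and 84109800 counts assigned to genes. The IP carried the cell type its label or driver gives: all 10 astrocyte markers were higher in IP than in input in the astrocyte cohort and in both genotypes of the SAPAP3 cohort, whose labels name no IP cell type, and all 9 neuron markers tested were higher in the neuron IP. Microglial and endothelial markers were lower in all 4 IP (10 of 10 each). The summed level of 3 cholinergic interneuron markers was 76.78 to 95.60 CPM in the astrocyte inputs and 370.91 to 396.51 CPM in the IP. In SAPAP3 WT it was 53.74 to 91.09 CPM in input and 228.28 to 310.01 CPM in IP, and KO likewise rose without overlap. The 9 neuron markers summed to 6560 to 6843 CPM in the astrocyte inputs and less, 4228 to 4448 CPM, in the IP. In the neuron cohort the 10 astrocyte markers summed to 6386 to 6779 CPM in input and still to 3879 to 4131 CPM in IP. The part of cholinergic RNA in the members' values, and that of astrocyte RNA in the neuron IP, was not tested. All 8 libraries of the astrocyte cohort held 1000 or more counts of the Y-linked gene Kdm5d and none held 1000 or more of Xist, and the 8 of the neuron cohort were the reverse, so that sex, cohort and the kind of cell cannot be told apart where those cohorts are compared. In the SAPAP3 cohort 1 of 4 mice of each genotype reached 1000 counts of Xist, as did 1 of 4 bulk WT and 0 of 4 bulk KO libraries.

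In the astrocyte cohort, 33 of 90 members tested were higher in IP than in input and 39 were lower, where 39.2% of all genes tested were higher and 41.2% lower (edgeR quasi-likelihood test, adjusted p under 0.05, n = 4 and 4). The median log2(FC) of the members, the log2 of IP over input, was −0.09, beside −0.02 for all genes tested. In the neuron cohort 80 of 90 members were higher and 5 lower, where 35.5% of all genes were higher and 35.9% lower, and the median log2(FC) was 0.49 beside −0.00. In the SAPAP3 cohort, 40 of 89 members were higher and 11 lower in WT (all genes 32.7% and 34.6%; median 0.16), and 44 of 88 were higher and 13 lower in KO (all genes 36.1% and 35.9%; median 0.17). The neuron IP thus held nearly the whole set above its input, by at most 0.77 on the log2 scale (Ndufb2). In the astrocyte IP the members were higher and lower about as often as all genes. Scaling to total counts in place of TMM moved the median of all genes to between −0.25 and −0.20 in the 4 comparisons. It moved the members' medians to −0.31, 0.28, −0.01 and −0.03, so that both SAPAP3 medians changed sign. The members' median minus that of all genes was −0.06, 0.49, 0.20 and 0.18 under both, but scaling moves all genes of a comparison alike and cannot change it. The members called higher and lower under total counts were 22 and 56 in the astrocyte IP, 66 and 7 in the neuron IP, 28 and 21 in WT and 23 and 26 in KO. Over all genes tested, in the same order, these were 4353 and 8376 of 15476, and 3027 and 8001 of 16198. In WT they were 3695 and 7091 of 15587, and in KO 3962 and 7508 of 15583. The members' median minus that of all genes was −0.12, 0.32, 0.10 and 0.11 among genes with an FPKM above 5. Without a filter on low counts it was 0.01, 0.58, 0.28 and 0.28.

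**Figure D1:**
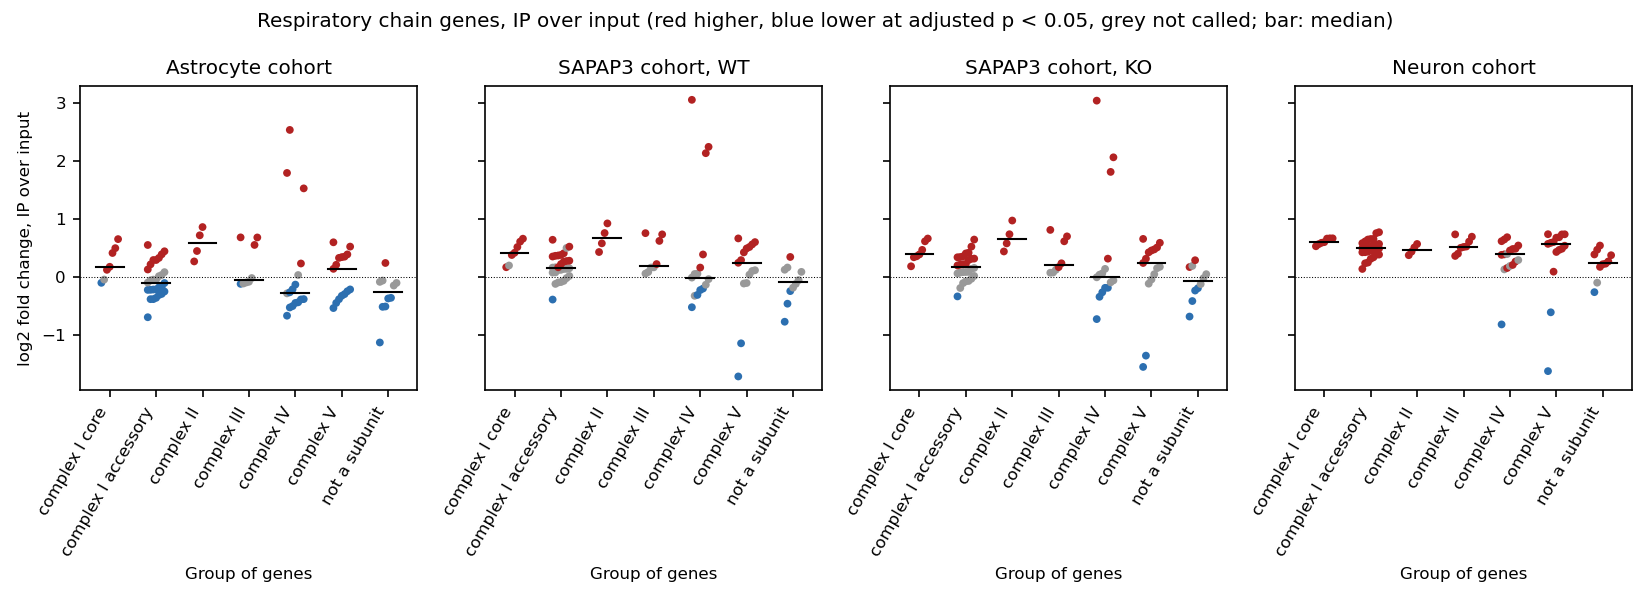
log2 fold change of IP over input (vertical axis) for the members tested, by complex (horizontal axis), in the astrocyte cohort, the SAPAP3 cohort (WT and KO) and the neuron cohort. Each point is a gene, red if higher and blue if lower at an adjusted p under 0.05, grey if not called, and bars are group medians; Ndufa4l2 is not drawn. Complex II is above 0 in all 4 panels, nearly all groups are above 0 in the neuron cohort, and 3 complex IV isoforms stand above 1 in the 3 panels other than the neuron cohort.

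Most of the large core subunits rose in every IP. Sdha, the flavoprotein subunit of succinate dehydrogenase that links the citric acid cycle to the chain, was at 402, 397, 385 and 392 CPM (counts scaled to 1000000 per library) in the astrocyte inputs and at 626, 619, 615 and 598 CPM in the IP. The groups did not overlap, and Sdha was the highest of the members that are not restricted isoforms (log2(FC) 0.86 ± 0.032 SE, adjusted p = 4.75e-10, edgeR). It was also higher in the neuron IP, at 442.7, 446.8, 444.1 and 461.4 CPM against inputs at 359.8, 376.4, 352.6 and 363.0 CPM (0.51 ± 0.037). Uqcrc1, a core protein of complex III, rose by 0.68 ± 0.037 in the astrocyte IP and by 0.74 ± 0.051 in that of neurons; its IP values were 293, 295, 279 and 286 CPM in the former and 302, 313, 283 and 312 CPM in the latter. Ndufs1, the largest iron–sulphur subunit of complex I, rose by 0.66 ± 0.034 and 0.67 ± 0.039, and its difference between the 2 cohorts was 0.01 ± 0.048 (adjusted p = 0.838). Uqcrfs1, the Rieske iron–sulphur protein, rose by 0.69 ± 0.037 and 0.50 ± 0.038. Atp5a1 and Atp5b, which form the catalytic head of ATP synthase, rose by 0.60 ± 0.038 and 0.53 ± 0.036 in the astrocyte cohort and by 0.74 ± 0.052 and 0.74 ± 0.046 in the neuron cohort. Ndufb2 and Ndufa9, accessory subunits of complex I, were the highest members in the neuron IP (0.77 ± 0.043 and 0.76 ± 0.046), and Ndufb2 was lower in the astrocyte IP (−0.25 ± 0.049). Of the 12 core subunits that were followed as a set, only Cox4i1 was lower in the astrocyte IP at an adjusted p under 0.05 (−0.21 ± 0.044), and it was higher in the neuron IP (0.38 ± 0.044).

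The upstream bases of Sdha and Uqcrc1 are shown because these genes rose in all 4 IP (same build and marking). Sdha lies on the minus strand at chr13:74350241-74350490 and Uqcrc1 on the plus strand at chr9:108936398-108936647.
Sdha: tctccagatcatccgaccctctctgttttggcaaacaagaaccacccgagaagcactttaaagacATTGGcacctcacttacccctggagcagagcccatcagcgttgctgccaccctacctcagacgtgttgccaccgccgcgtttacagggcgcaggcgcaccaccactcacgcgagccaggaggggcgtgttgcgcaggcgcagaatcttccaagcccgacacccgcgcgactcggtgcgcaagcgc
Uqcrc1: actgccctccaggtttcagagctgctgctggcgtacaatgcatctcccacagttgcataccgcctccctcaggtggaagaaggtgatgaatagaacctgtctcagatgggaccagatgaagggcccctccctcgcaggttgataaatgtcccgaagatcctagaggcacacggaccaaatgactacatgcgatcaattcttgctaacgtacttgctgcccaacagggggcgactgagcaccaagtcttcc

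By complex, counts in the astrocyte IP are read beside the 39.2% of all genes that were higher and the 41.2% that were lower. For the neuron IP these shares were 35.5% and 35.9%, and complexes were not tested against each other. All 4 complex II genes were higher (median 0.59), as were 5 of 7 complex I core genes, with 1 lower (median 0.18). Of the 29 accessory genes of complex I, 8 were higher and 14 lower (median −0.10). Complex III had 3 higher and 1 lower of 8 (median −0.05), and its 3 that rose were Uqcrc1, Uqcrc2 and Uqcrfs1. Of the 16 complex IV genes tested, 4 were higher and 10 lower (median −0.27). Complex V had 8 higher and 7 lower of 15 (median 0.14). In the neuron IP the counts were 7 of 7 complex I core genes higher (median 0.60), 28 of 28 accessory genes (0.50), 4 of 4 in complex II (0.47), 8 of 8 in complex III (0.52), 12 of 17 in complex IV with 1 lower (0.39), and 13 of 15 in complex V with 2 lower (0.57).

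Cox6b2, Cox4i2 and Cox7a1, restricted isoforms of complex IV, had the highest log2(FC) of the members in the astrocyte IP. Cox6b2 was at 3.26, 3.42, 3.23 and 3.89 CPM in the astrocyte inputs and at 17.1, 17.1, 20.0 and 14.6 CPM in the IP. Every IP library was above every input library (log2(FC) 2.54 ± 0.11, adjusted p = 1.7e-09). In the neuron cohort the inputs were at 1.58, 2.03, 1.69 and 2.17 CPM and the IP at 2.14, 2.49, 1.74 and 2.74 CPM. Those groups overlapped, and the difference was called at a small size (0.48 ± 0.16, adjusted p = 0.021), a call that was lost under scaling to total counts, and also without input library 1 (0.41) or without IP library 4 (0.40). In the SAPAP3 cohort Cox6b2 rose by 3.06 ± 0.20 in WT and 3.05 ± 0.15 in KO.

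Cox7a1 was at 0.684, 1.30, 0.833 and 1.05 CPM in the astrocyte inputs and at 2.33, 2.43, 2.31 and 2.59 CPM in the IP (1.53 ± 0.18, adjusted p = 1.06e-05). Its neuron IP values of 1.38, 0.988, 0.856 and 1.51 CPM lay among inputs at 1.18, 1.03, 0.882 and 1.35 CPM (0.29 ± 0.21, adjusted p = 0.234). The SAPAP3 IP were above their inputs by 2.25 ± 0.27 in WT and 2.07 ± 0.23 in KO. Cox4i2 was at 2.01, 1.41, 1.40 and 2.27 CPM in the astrocyte inputs and at 5.55, 5.10, 5.27 and 5.06 CPM in the IP (1.80 ± 0.15, adjusted p = 4.6e-07). In the neuron cohort it went the other way, from 1.32, 1.37, 1.20 and 1.65 CPM in input to 0.755, 0.830, 0.452 and 0.685 CPM in IP, without overlap (−0.82 ± 0.20, adjusted p = 0.00357). Cox4i2, Cox6b2 and Cox7a1 were the 3 members called higher by more than 1 on the log2 scale in the astrocyte cohort and in both SAPAP3 genotypes, and no member was in the neuron cohort; over all genes that share was 13.4%, 10.9%, 12.3% and 0.42% in the astrocyte, WT, KO and neuron comparisons. Mural cell markers, named here because Cox4i2 is known from pericytes, had 3 of 10 higher and 6 lower in the astrocyte IP, with a summed level of 152.6 to 162.4 CPM in input and 162.9 to 170.9 CPM in IP. The 5 ependymal markers were higher in the astrocyte IP and in both SAPAP3 IP (5 of 5 each), and none was called in the neuron IP; their part in these values was not tested.

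**Figure D2:**
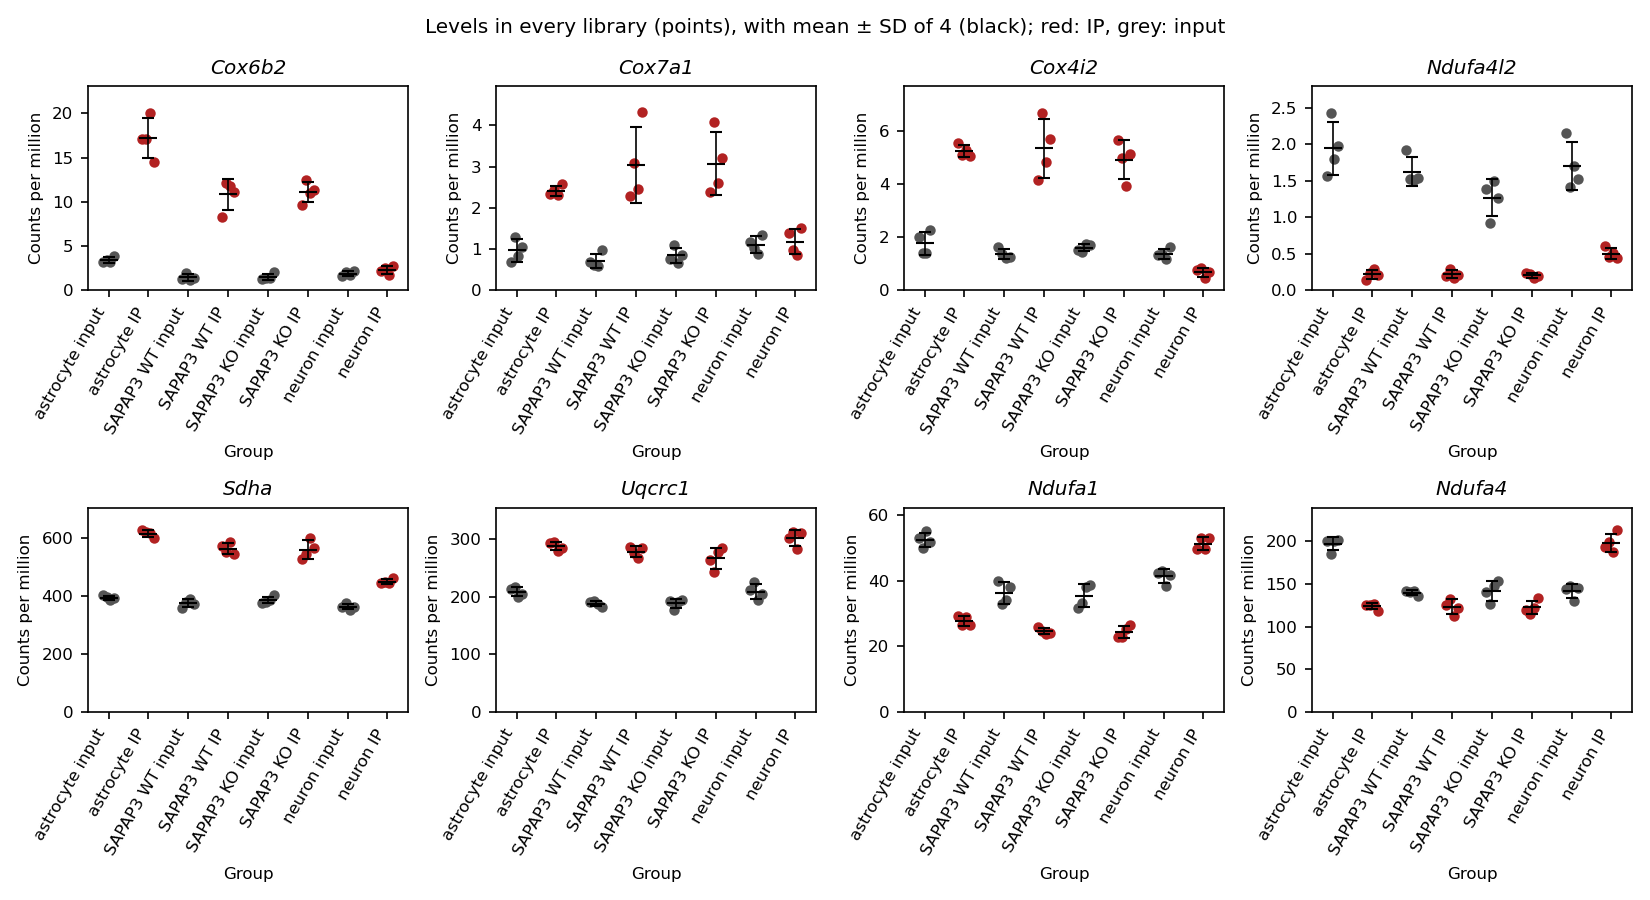
CPM (vertical axes, from 0) of 8 genes in every library of the IP and input groups, with mean ± SD of 4 libraries; red points are IP and grey points input. Cox6b2, Cox7a1 and Cox4i2 are higher in IP than input in the astrocyte and SAPAP3 groups, Ndufa4l2 is lower in all IP groups, and Ndufa1 and Ndufa4 are lower in the astrocyte IP but higher in the neuron IP.

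Ndufa4, a subunit of complex IV that was first assigned to complex I, was at 201, 186, 201 and 202 CPM in the astrocyte inputs and 125, 125, 127 and 119 CPM in the IP, so that all IP libraries were lower (−0.45 ± 0.038, adjusted p = 6.75e-07). In the neuron cohort it rose from 144, 148, 129 and 145 CPM to 193, 199, 187 and 213 CPM (0.69 ± 0.050). Ndufa1, a small accessory subunit of complex I, behaved likewise: inputs at 52.9, 49.8, 55.0 and 51.7 CPM and IP at 29.1, 26.4, 28.9 and 26.5 CPM in the astrocyte cohort (−0.70 ± 0.051), and inputs at 42.4, 43.0, 38.5 and 41.7 CPM and IP at 49.5, 52.9, 49.5 and 53.1 CPM in the neuron cohort (0.51 ± 0.044). Neither gene's groups overlapped in either cohort. In the SAPAP3 cohort Ndufa1 was lower in IP too (−0.39 ± 0.073 in WT, −0.34 ± 0.083 in KO), but Ndufa4 was not called (−0.01 ± 0.058 and −0.00 ± 0.069), and under scaling to total counts it was called lower in both (−0.18, adjusted p = 0.0233, and −0.21, adjusted p = 0.0217; edgeR). Other small subunits that were lower in the astrocyte IP were Cox7c (−0.67 ± 0.055) and Atp5e (−0.54).

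Ndufa4l2, a paralogue of Ndufa4 known as a hypoxia-induced gene, was the member with the lowest log2(FC) in the astrocyte IP. It was at 1.57, 2.43, 1.80 and 1.98 CPM in input and at 0.147, 0.239, 0.289 and 0.204 CPM in IP (−2.91 ± 0.24, adjusted p = 4.87e-07). It was lower in the neuron IP as well, at 0.604, 0.461, 0.511 and 0.444 CPM against 2.16, 1.42, 1.71 and 1.53 CPM (−1.54 ± 0.18), and by −2.70 ± 0.23 and −2.40 ± 0.25 in WT and KO of the SAPAP3 cohort. Of the 10 members that are not subunits, 1 was higher and 5 lower in the astrocyte IP (median −0.25), and 8 were higher and 1 lower in the neuron IP (median 0.25). Over all genes, 39.2% were higher and 41.2% lower in the former, and 35.5% and 35.9% in the latter. Cox7a2l, which takes part in supercomplex assembly, was lower in both IP: it went from 139, 131, 139 and 150 CPM to 54.3, 56.0, 54.5 and 54.2 CPM in the astrocyte cohort (−1.13 ± 0.040) and from 106, 108, 95.8 and 107 CPM to 74.0, 79.2, 72.0 and 76.7 CPM in the neuron cohort (−0.26 ± 0.045). Cox7a2l and Ndufa4l2 were the 2 members called lower past −1 in the astrocyte cohort, where 13.5% of all genes were.

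The IP over input log2(FC) differed between the neuron and astrocyte cohorts in 79 of 91 members tested, by an interaction term: 72 were higher in the neuron cohort and 7 lower, where 35.8% and 34.3% of all genes were. The median difference was 0.47, beside 0.02 for all genes. The 5 highest were Ndufa4l2 (1.37), Ndufa1 (1.21), Ndufa4 (1.14), Cox7b (1.05) and Ndufb2 (1.02), all but the first of them subunits that were lower in one IP and higher in the other. At the other end, Cox4i2 differed by −2.62 ± 0.25, Cox6b2 by −2.06 ± 0.19, Atp5g2 by −1.38 ± 0.17 and Cox7a1 by −1.24 ± 0.29. The remaining 3 lower members were Sdha (−0.35 ± 0.042), Sdhc (−0.34 ± 0.064) and Uqcrfs1 (−0.18 ± 0.048), which rose in both IP and more in that of astrocytes.

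Within a library the share of a restricted isoform in its pair does not depend on scaling. On the FPKM scale, which corrects for length, Cox6b2 made up 8.38% ± 1.01 (SD, n = 4) of Cox6b1 plus Cox6b2 in the astrocyte IP and 1.41% ± 0.0845 in its input. It made up 5.45% ± 0.835 in the SAPAP3 WT IP and 5.85% ± 0.408 in the KO IP, against 0.772% ± 0.230 and 0.819% ± 0.124 in their inputs, and 0.870% ± 0.129 in the neuron IP against 0.854% ± 0.0970. Cox7a1 made up 10.1% ± 0.636 of its pair in the astrocyte IP, 13.5% ± 3.51 in WT, 13.9% ± 3.10 in KO and 3.50% ± 0.748 in the neuron IP, against inputs between 2.88% and 4.00%. These shares rest on merged exon lengths of 366 bases for Cox7a1 and 1458 bases for Cox7a2. Of the exon bases of Cox7a2, Gm51685 on the opposite strand shares 48.1% and Tmem30a on the same strand 14.9%. By counts without length, the mean log2 ratio of Cox7a1 to Cox7a2 in the astrocyte IP was −5.14, below −3.07 for Cox6b2 to Cox6b1. Cox4i2 made up 1.47% ± 0.0442 in the astrocyte IP and 0.153% ± 0.0345 in the neuron IP, and its pair moved in opposite directions in these cohorts (log2 difference of the ratio 2.02 and −1.22). On the FPKM scale, the highest share of a restricted isoform in any library of these 3 pairs was 18.6%, for Cox7a1. For these pairs every IP library was on the same side of all inputs in the astrocyte and SAPAP3 comparisons, which is the smallest p that 4 against 4 allows (p = 0.0286, two-sided exact permutation test); over the 51 ratios and comparisons computed the adjusted value was 0.0634, above 0.05. Cox6a2 made up 1.72% ± 0.216 of its pair in the astrocyte IP and 1.21% ± 0.280 in its input (p = 0.0286, adjusted 0.0634, exact permutation test). In the SAPAP3 cohort its share was 1.87% ± 0.341 in IP and 2.16% ± 0.329 in input of WT (p = 0.286), and 1.42% ± 0.220 and 1.96% ± 0.175 in KO (p = 0.0571, exact permutation tests). As a single gene, Cox6a2 was not called in the astrocyte IP (0.03 ± 0.17), was higher in the neuron IP (0.39 ± 0.11), and was lower in the SAPAP3 IP of WT (−0.52 ± 0.17) and KO (−0.73 ± 0.15); the neuron call was lost under scaling to total counts and among genes with an FPKM above 5, and the WT call without WT input library 2 (−0.42). Cox8b was too rare to be tested by edgeR in the astrocyte cohort. Cox8c had no test in any comparison.

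**Figure D3:**
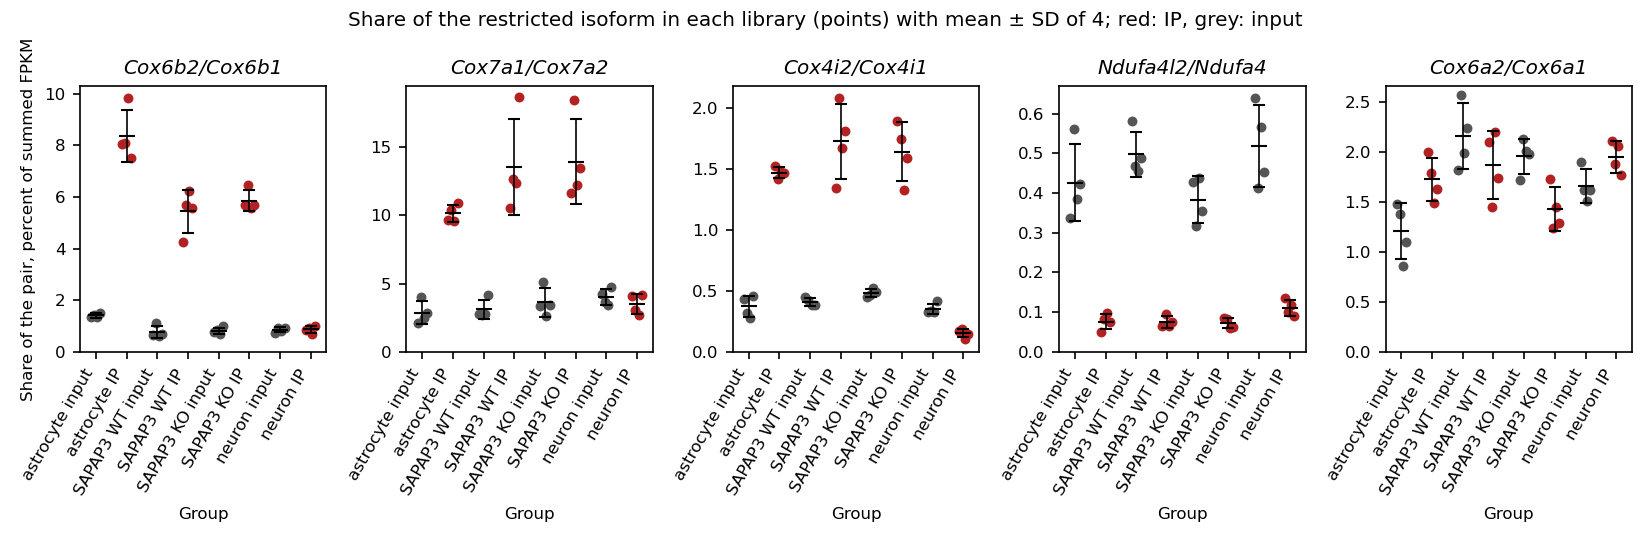
Share of the restricted isoform in the summed FPKM of its pair (vertical axes, percent, from 0) in every library of the IP (red) and input (grey) groups, with mean ± SD of 4. Cox6b2 and Cox7a1 reach 8.38% and 10.1% on average in the astrocyte IP and stay at 0.870% and 3.50% in the neuron IP, and the share of Ndufa4l2 is lower in every IP group than in its input.

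Both genotypes of the SAPAP3 cohort gave the pattern of enrichment side by side. Counts are read beside all genes, of which 32.7% were higher and 34.6% lower in WT, and 36.1% and 35.9% in KO. In WT and KO, complex I core genes were higher in 6 and 7 of 7 (medians 0.42 and 0.39), complex II genes in 4 of 4 (0.67 and 0.66), complex III genes in 4 and 5 of 8 with none lower (0.20 and 0.20), and complex V genes in 8 of 15 with 2 lower in each (0.25 and 0.24). Complex IV had 5 higher and 4 lower of 15 in WT and 4 higher and 5 lower in KO. Sdha was higher by 0.76 ± 0.061 and 0.74 ± 0.063, and Sdhc, a membrane anchor of complex II, by 0.93 ± 0.083 and 0.98 ± 0.076. The WT and KO fits share no library, and the interaction term called none of the 90 members (0% of 16059 genes; edgeR), with an interaction median of −0.04. In these IP 8 of 10 oligodendrocyte markers were also higher in each genotype, with summed levels in WT of 5904 to 6869 CPM in input and 7299 to 10661 CPM in IP; their part in the values was not tested.

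The set took a small part of the RNA. Its summed counts were 1.11% ± 0.0137 (SD, n = 4) of all counts in the astrocyte inputs and 1.08% ± 0.0233 in the IP, 0.879% ± 0.0368 and 1.12% ± 0.0449 in the neuron cohort, 0.847% ± 0.0285 and 0.976% ± 0.0306 in SAPAP3 WT, 0.836% ± 0.0493 and 0.942% ± 0.0632 in KO, and 0.889% ± 0.0594 and 0.909% ± 0.0325 in bulk WT and KO. IP libraries lay above their inputs without overlap in the neuron cohort and in SAPAP3 WT, and overlapped with them in the astrocyte cohort and in KO. In KO each IP library was above the input of its own mouse, at 0.909% against 0.828%, 0.872% against 0.772%, 0.977% against 0.857% and 1.01% against 0.888%, whereas the astrocyte pairs went both ways. Per length, Atp5b was the highest member in every group, at 662 FPKM in the astrocyte inputs, 817 FPKM in the astrocyte IP, 570 and 826 FPKM in the neuron input and IP, and 612 FPKM in bulk WT. Cox8a (584 ± 6.87 FPKM) and Cox4i1 (578 ± 33.7 FPKM) followed in the astrocyte inputs and did not differ beyond their SD.

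No member was called between SAPAP3 KO and WT. The targeted gene, Dlgap3, was lower in KO by −1.14 ± 0.14 in bulk (adjusted p = 0.318), −1.19 ± 0.10 in input (0.00698) and −1.40 ± 0.17 in IP (0.0283; edgeR), and KO libraries still held 2057 to 10627 counts of it. With edgeR 0 of 91 members were called in bulk, where 0% of 16020 genes were, 0 of 88 in input (0.00641% of genes, 1 gene) and 0 of 89 in IP (0.0263%, 4 genes). At an unadjusted p under 0.05 there were 0, 0 and 1 members beside 792, 869 and 399 genes, and limma-voom and the DESeq2 Wald test called no member either. In bulk, the libraries that share an animal number were at 376 CPM (WT) and 161 CPM (KO) for Dlgap3, where the other WT libraries were at 385, 338 and 232 CPM and the other KO libraries at 153, 154 and 144 CPM. Without both of them, an alternative chosen after seeing the data, 0 members and 0 genes were called in bulk (edgeR), and Atp5g2 moved from 0.29 to 0.08. Bulk WT and KO also differ in sex, as given above, and its part was not tested. The member was Cox6a2 in IP: WT libraries at 3.07, 2.03, 2.60 and 2.75 CPM and KO libraries at 2.28, 1.50, 1.82 and 1.90 CPM, which overlapped (log2(FC) −0.46 ± 0.18). The 12 core subunits lay between −0.05 (Uqcrfs1) and 0.06 (Ndufv1) in bulk, between −0.03 (Uqcrfs1) and 0.07 (Sdha) in input, and between −0.08 (Cox5a) and 0.01 (Ndufv1) in IP, and the median SE of a member was 0.067, 0.071 and 0.077. Members with few counts were among those furthest from 0. In bulk these were Cox8b (−0.39 ± 0.61), Cox4i2 (−0.33 ± 0.19) and Atp5g2 (0.29 ± 0.29). In input they were Atp5g2 (−0.46 ± 0.32) and Ndufa4l2 (−0.31 ± 0.19). In IP they were Cox6a2 (−0.46 ± 0.18, the furthest), Atp5g2 (−0.35 ± 0.31) and Cox7c (−0.23 ± 0.10). In IP, 75 of 89 members (84.3%) had a log2(FC) below 0, beside 47.4% of all genes, with a median of −0.04; the members share libraries, and their summed share of counts in IP was 0.934% to 1.01% in WT and 0.872% to 1.01% in KO, which overlapped.

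**Figure D4:**
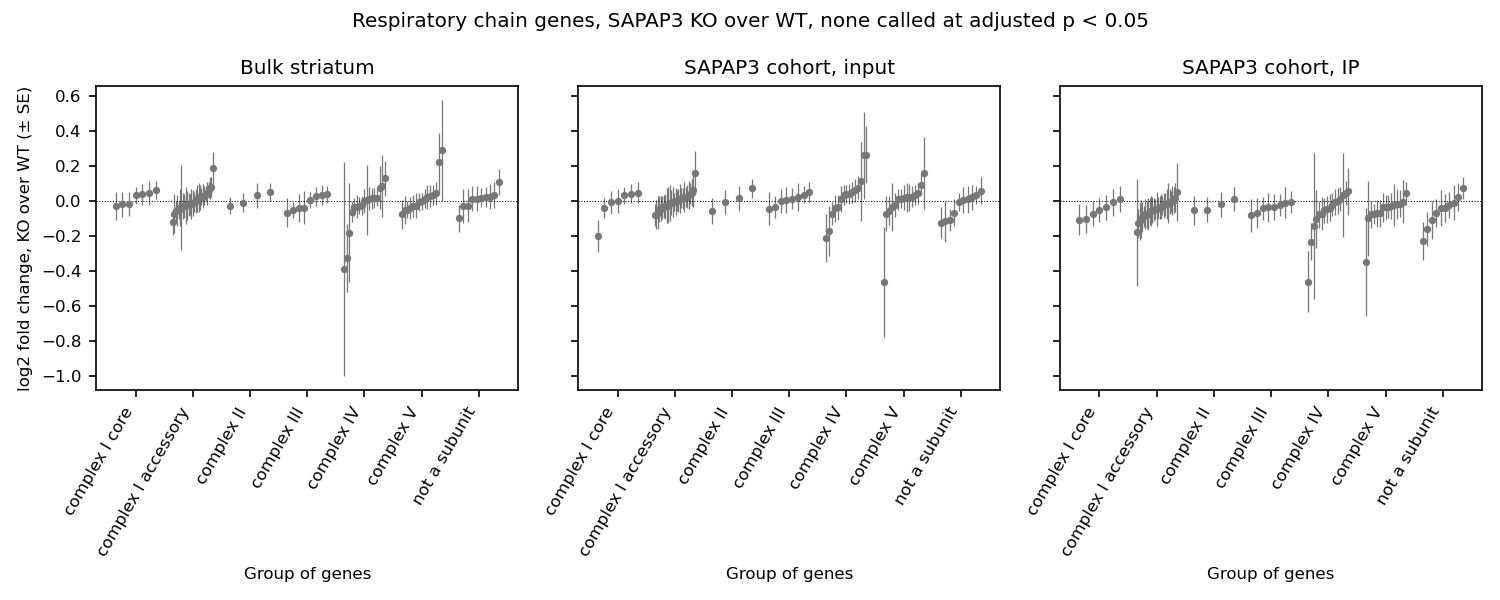
log2 fold change of KO over WT (vertical axis, points with ± SE) for the members tested, by complex, in bulk striatum and in the input and IP of the SAPAP3 cohort; Ndufa4l2 is not drawn. Points lie near 0 with few exceptions, and no member was called.

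Member genes are short, and short genes were more often lower than higher in the astrocyte IP, members and others alike. The median merged exon length was 999.5 bases, against 3662 bases for all genes tested in the astrocyte cohort. In that cohort, 8 of 44 members under 1000 bases were higher and 27 lower (median −0.20), beside 180 higher and 570 lower of all 886 genes of that length (median −0.54), while 25 of 46 members of 1000 bases or more were higher and 12 lower (median 0.14), beside 5875 and 5777 of 14529 (median −0.00). Over the 90 members Spearman's rho between length and log2(FC) was 0.37, and 0.09 over 15415 genes. In the neuron cohort short and long members were alike: 37 higher and 3 lower of 44, and 43 higher and 2 lower of 46 (medians 0.46 and 0.54), beside 305 higher and 461 lower of 1030 short genes of any kind (median −0.23; rho 0.25 over members, −0.03 over all genes). In SAPAP3 WT and KO rho over members was 0.29 and 0.30. Genes share the same libraries, so these are descriptions. Cytosolic ribosomal protein genes, which are short as well, were lower in all 4 IP, with 74 of 76 lower in the astrocyte cohort (median −1.24) and 63 of 75 in the neuron cohort (−0.56).

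**Figure D5:**
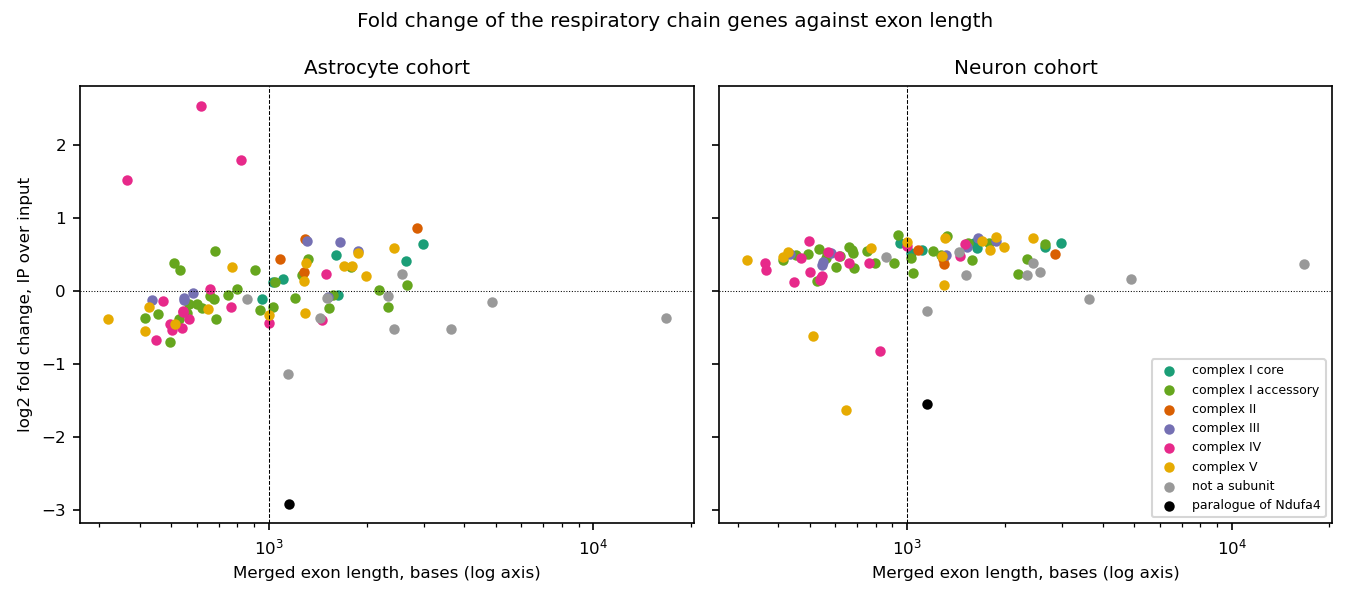
log2 fold change of IP over input (vertical axis) against merged exon length (horizontal log axis, bases; dashed line at 1000) for the members tested in the astrocyte and neuron cohorts, coloured by group. Short members lie mostly below 0 in the astrocyte cohort, with 8 of 44 called higher, whereas short and long members alike lie above 0 in the neuron cohort.

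For some members, near-identical copies in the genome limit what a count means. Of the 92 members, 19 had 1 or more further genomic matches of at least 95% identity over at least 50% of the transcript, with 10 for Atp5l, 4 for Atp5h and 3 each for Cox7c and Uqcrb. Levels of several of these genes differed widely between cohorts, as did those of 4 members for which no such match was found: the ratio of means described next was 4.92 for Ndufab1, 2.89 for Cox6b2, 2.08 for Ndufb4 and 2.03 for Atp5e. Cox7c was at 73.7, 73.3, 85.6 and 81.4 CPM in the astrocyte inputs and at 4.12 to 8.05 CPM in the remaining 20 libraries of input or bulk RNA, a ratio of means of 13.6. Atp5g2, a gene for the c-ring subunit of ATP synthase, was at 18.5 to 19.6 CPM against 0.519 to 2.73 CPM, a ratio of 13.3. Over members at 1 CPM or more, the median of this ratio was 1.70 for 18 with a copy and 1.24 for 69 without. The labels do not say how reads with several alignments were counted, and its part was not tested. The coding bases below (coding blocks of GENCODE, genome GRCm38.p6) are shown because each is identical, with 0 mismatches, to a second place in the genome: for Cox7c, chr13:86045810-86045869 (minus strand) and chr11:75599820-75599879 (minus strand), and for Atp5g2, chr15:102665188-102665247 (minus strand) and chr17:5816449-5816508 (minus strand). All letters are lower case, since no base differs.
Cox7c: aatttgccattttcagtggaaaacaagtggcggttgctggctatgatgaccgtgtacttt
Atp5g2: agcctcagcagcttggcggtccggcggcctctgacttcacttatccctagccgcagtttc
The values of Atp5g2 and Atp5l in IP, lower than input in all 4 comparisons (−0.25, −1.63, −1.72 and −1.55 for Atp5g2 in the astrocyte, neuron, WT and KO comparisons; −0.45, −0.61, −1.15 and −1.36 for Atp5l), are uncertain for this reason. Ndufs5 had 0 counts in all 8 libraries of the neuron cohort and 1.63 to 2.42 CPM in the astrocyte cohort. Without the members that have a copy, 27 of 71 were higher and 29 lower in the astrocyte IP, and 66 of 72 higher and 2 lower in the neuron IP. Over all genes, 39.2% were higher and 41.2% lower in the former, and 35.5% and 35.9% in the latter.

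Letters known as binding motifs were searched on both strands, in the window from 250 bases before to 50 after the start, in the 76 members with an entry. GCGCATGC, a core of the NRF-1 motif, was in 12 of 76 (15.8%), among them Uqcrc1 and Sdhb, beside 3.05% of 27025 genes. AAGATGGC, read by YY1, was in 11 (14.5% beside 3.19%), and CCGGAAGT, read by ETS factors such as GABP, in 5 (6.58% beside 4.31%). CCAAT was in 34 (44.7% beside 41.1%). No entry was matched for Cox4i1, Cox4i2 and Ndufa4l2.

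Other genes of mitochondria were followed as lists. Their counts are read beside the shares of all genes called higher and lower. These were 39.2% and 41.2% in the astrocyte IP, 35.5% and 35.9% in the neuron IP, 32.7% and 34.6% in WT, and 36.1% and 35.9% in KO. All 14 citric acid cycle genes were higher in the astrocyte IP (median 0.55), in WT (0.62) and in KO (0.56), and 12 of 14 were higher and 1 lower in the neuron IP (0.58). Suclg2, the GTP-forming subunit of succinyl-CoA ligase, rose by 2.17 ± 0.076 in the astrocyte IP and was lower in the neuron IP (−0.91 ± 0.091). Idh2, the mitochondrial NADP-dependent isocitrate dehydrogenase, rose by 1.97 ± 0.064 in the astrocyte IP and was at −0.06 ± 0.10 in the neuron IP (adjusted p = 0.610). Of 39 assembly factors and related genes tested, 9 were higher and 21 lower in the astrocyte IP (median −0.18), 30 higher and 3 lower in the neuron IP (0.24), 9 and 13 in WT, and 11 and 13 in KO. Cox17, a copper chaperone of complex IV, was lower in the astrocyte IP (−0.88 ± 0.052) and higher in the neuron IP (0.30 ± 0.052), and Acad9, a complex I assembly factor, rose by 1.05 ± 0.041 in the astrocyte IP. Mitochondrial ribosomal protein genes had 23 higher and 26 lower of 77 in the astrocyte IP and 69 higher and 1 lower in the neuron IP, and 35 and 8 in WT and 34 and 5 in KO. Of 10 regulators of mitochondrial biogenesis, 3 were higher and 5 lower in the astrocyte IP and 5 and 2 in the neuron IP, and 5 and 3 in both WT and KO. Among them Ppargc1a, which encodes the coactivator PGC-1α, rose by 0.99 ± 0.037 in the astrocyte IP and was at −0.03 ± 0.059 in the neuron IP. With edgeR, no gene of these lists was called between KO and WT in bulk, input or IP.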

How the data were processed

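RNA was sequenced from striatal input, IP and bulk samples. The deposited table holds counts, whole numbers of reads per gene; the authors aligned reads with STAR to mm10 and, per the submitters' processing notes, used HTSeq. The library kit differs between the labels and the study's methods, and how reads with several alignments were handled is not given in the sources used here. The members and lists were chosen with earlier results of these data known. Genes named are 12 core subunits, isoform pairs, members called past 1 or −1 in IP, any called between genotypes, the 5 highest and 5 lowest of each comparison, and the genes that are not subunits as a group.

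Counts were tested with edgeR 4.0.16 (R 4.3.3; filterByExpr, TMM, quasi-likelihood, Benjamini-Hochberg over all genes tested, threshold 0.05), on the libraries of each comparison or, for a difference of enrichment, on all 16 with an interaction term. Scripts were tested on simulated data. CPM is scaled to total counts. FPKM used merged exon lengths of RefSeq GRCm38.p6, found for 23903 of 24060 genes. Isoform ratios (0.5 added to each count, pairs whose rarer isoform had a mean of 10 counts in a group) were compared by two-sided exact permutation tests with SciPy 1.17.1. Genomic copies came from BLAST+ 2.17.0. Alternatives were DESeq2 1.42.0 (size factors, Wald test), total counts, no filter, FPKM above 5, limma-voom (limma 3.58.1), the replicate number as block, leaving out each library and, chosen after seeing the data, leaving out both bulk libraries with the same animal number. IP and input with the same number came from the same mouse by the labels in the astrocyte and SAPAP3 cohorts and share a number in the titles of the neuron cohort, whose labels name different animals for IP and input; deviations of same-numbered libraries correlated at 0.258 to 0.791 in all 4, others at −0.532 to 0.320, so the numbers were taken to pair the samples, in the neuron cohort from this correlation alone. Replicates are separate samples by the labels, with 1 animal number in both bulk genotypes; p-values measure the spread between samples, which may be technical.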

Additional observations from a re-analysis of the deposited data

Results flagged for a closer look

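The enrichment in IP over input differed between the neuron and astrocyte cohorts by the interaction test of edgeR for 14 of 18 genes examined this way. Such calls were common, since 35.8% of all genes tested were higher in the neuron cohort and 34.3% lower. The differences in log2(FC), neuron minus astrocyte, were −2.62 for Cox4i2, −2.06 for Cox6b2, −1.38 for Atp5g2, −1.24 for Cox7a1 and −0.35 for Sdha. They were 1.37 for Ndufa4l2, 1.21 for Ndufa1, 1.14 for Ndufa4, 0.88 for Cox7a2, 0.87 for Cox7a2l, 0.80 for Cox7c, 0.59 for Cox4i1, 0.59 for Cox6b1 and 0.21 for Atp5b. Sex, cohort and the kind of cell cannot be told apart in them, and counts of Atp5g2, Cox7c and Cox7a2l may include reads of near-identical copies.

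In 10 of 190 groups of 4 libraries, the lowest or highest library stood apart from the others by Dixon's test, where chance gives about 5%. The highest library was at 2.05 CPM for Cox6b2 in the KO inputs, at 1.92 CPM for Ndufa4l2 and 332 CPM for Cox4i1 in the WT inputs, and at 397 CPM for Cox4i1 in bulk KO. The lowest library was at 95.8 CPM for Cox7a2l and 99.5 CPM for Cox7a2 in the neuron inputs, at 6.16 CPM for Cox7c in the neuron IP, and at 186 CPM in input and 119 CPM in IP for Ndufa4 in the astrocyte cohort. The summed share of the members reached 0.889% of counts in 1 WT input.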

How the results depend on the processing

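Of 3869 values recomputed for 264 results, 3742 were labelled as unchanged. For single genes this meant the same direction and the same side of the threshold. For counts of members it meant a change within 1.5 times. For medians, and for isoform ratios without 1 library, it went by the size of the shift, so that a small value could change sign without being flagged. Scaling to total counts moved the members' median log2(FC) of IP over input to −0.31 in the astrocyte cohort, 0.28 in the neuron cohort, −0.0067 in SAPAP3 WT and −0.029 in KO. It raised the members lower in WT to 21, where 7091 of all 15587 genes were lower. In KO it gave 23 members higher and 26 lower, beside 3962 and 7508 of all 15583 genes. Without a filter the medians were −0.052 (astrocyte) and 0.23 (WT), and among genes with an FPKM above 5 they were −0.14 (astrocyte) and 0.34 (neuron). With the latter filter 3 members were lower in the neuron cohort, beside 2801 of all 8402 genes. Leaving out 1 library gave astrocyte medians from −0.085 to −0.055, and counts of members within 1.5 times in all 4 cohorts. With the replicate number as block, members higher and lower were 33 and 42 (astrocyte), 80 and 5 (neuron), 42 and 13 (WT) and 50 and 14 (KO). Over all genes tested they were 6297 and 6613 of 15476 (astrocyte) and 6464 and 6416 of 16198 (neuron). In WT they were 5455 and 5886 of 15587, and in KO 5981 and 5998 of 15583. No count of members moved by more than 1.5 times. Blocking gained a call for Cox6b1 in KO (0.14), and for Atp5a1 (0.14) and Cox6a2 (0.35) between the neuron and astrocyte cohorts. In the genotype comparisons no member was called under any alternative, including bulk without both libraries of the shared animal number, which was chosen after seeing the data.

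Some values changed sign. Under total counts these were Cox6a2 in the astrocyte IP (−0.19), Cox6a1 in the neuron IP (−0.049), Cox4i1 in WT (−0.12) and KO (−0.16), and Cox6b1 in WT (−0.0072) and KO (−0.064). With FPKM above 5 they were Cox6a1 in the neuron IP (−0.022) and Cox4i1 in WT (−0.0063) and KO (−0.033). Without a filter they were Cox7a2 in WT (0.034) and Ndufa4 in WT (0.059) and KO (0.023), and Ndufa4 in WT was 0.0043 with DESeq2 size factors and 0.0043 with its Wald test. In neuron minus astrocyte, Ndufs1 was −0.023 with DESeq2 size factors and −0.023 with its Wald test, and Cox8b −0.027 with limma-voom, which also gave −0.00085 for Cox7b2 in KO minus WT. Leaving out 1 library gave Cox6a2 in the astrocyte IP −0.082 to 0.15, Ndufa4 −0.056 to 0.017 in WT and −0.057 to 0.035 in KO, and Atp5g1 in KO −0.10 to 0.0017. For KO over WT it gave Cox6b2 −0.044 to 0.30 in input and −0.058 to 0.12 in IP, and Ndufb4 −0.050 to 0.17 in IP. For neuron minus astrocyte it gave Cox8b −0.25 to 0.41 and Ndufs1 −0.021 to 0.033, and for KO minus WT it gave Atp5g2 −0.17 to 0.36, Cox7a1 −0.40 to 0.0065 and Cox7b2 −0.29 to 0.58. Without 1 library, some small values not flagged above also changed sign. The members' median for KO over WT ran from −0.032 to 0.033 in bulk and from −0.026 to 0.033 in input. Several isoform ratios did so on the log2 scale. Among them were Cox8b/Cox8a in the neuron IP (−0.076 to 0.40), and Cox6b2/Cox6b1 (−0.10 to 0.12) and Ndufa4l2/Ndufa4 (−0.097 to 0.12) for bulk KO over WT. The cause was not tested. Among 186 results on single genes, 12 lost a call and 9 gained one under some alternative. Depth limits the rare isoforms: Cox8c passed the filter on low counts in none of the 9 comparisons, and Cox8b was left out in 6.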
